A study of Mus musculus with 12 samples.

Results

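The *Shank*, *Dlg* and *Homer* genes, which encode scaffold proteins of the postsynaptic density, carried m6A peaks in the hippocampus of WT and *Tyrobp*-/- mice. The genes were chosen by name and not by their values, as *Shank1*, *Shank2*, *Shank3*, *Dlg1*, *Dlg2*, *Dlg3*, *Dlg4*, *Homer1*, *Homer2* and *Homer3*. They held 32 of 33622 peaks in WT mice, where 10 of 10 genes had a peak, and 35 of 34935 peaks in *Tyrobp*-/- mice, where 9 of 10 genes had one. *Homer2* was the gene without a peak in *Tyrobp*-/- mice.

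The mice were 6 months old and on a C57BL/6 strain, and WT mice were compared with mice whose *Tyrobp* gene carried a short TALEN deletion in an exon (labelled *Tyrobp* KO). By the study's methods, the animals were males, the controls were age-matched littermates, and hippocampal RNA of 3 mice was pooled into each sample. Each genotype gave 3 samples. Each sample was sequenced as an IP library, made from RNA fragments bound by an antibody against m6A, and an input library, made from the same RNA without antibody, 12 libraries in all.

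Libraries held between 61189368 and 73554506 valid reads, as counted after trimming. The IP libraries had a GC content of 49.7% ± 0.541 in WT and 48.9% ± 0.442 in *Tyrobp*-/- mice (SD, n = 3 each), and whether this moved with the values of a peak was not tested. *Tyrobp* itself had 0 peaks in either list, so the peaks do not check the genotype labels. Peaks were listed for 6 of 7 marker genes of hippocampal neurons in each genotype, with *Gad1* as the gene without one. They were also listed for 4 of 5 microglial markers in each genotype, without *Trem2*, and for 3 of 3 astrocyte and 3 of 3 oligodendrocyte markers. Of 4 markers of hypothalamic neurons, *Oxt* alone had a peak, with 1 in WT and 0 in *Tyrobp*-/- mice. Listed peaks thus covered marker genes of several cell types, and a peak list does not hold expression levels.

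Each peak has 1 fold enrichment per genotype, the ratio of IP over input that the authors computed with exomePeak on the 3 samples of a genotype together. No peak therefore has a replicate error, and no difference between genotypes could be tested here. The values below are descriptions, given beside the same quantity over all peaks. A fold enrichment is a ratio within a transcript and not a level of RNA, so in bulk tissue it does not tell cells or genes of high and low expression apart.

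m6A is a methyl group on the N6 position of adenosine in RNA. It is laid down by a complex around METTL3 and METTL14, mostly at adenosines followed by a cytosine, and is known to gather near stop codons and in 3′ UTRs. The postsynaptic density is the protein layer beneath the membrane of excitatory synapses. In it, the PSD-95 family encoded by *Dlg1* to *Dlg4* holds glutamate receptors and adhesion molecules at the membrane, Dlgap proteins join that layer to the Shank proteins beneath, and Homer proteins tie Shank to group I metabotropic glutamate receptors and to calcium stores. The terms postsynaptic density, synapse and glutamatergic synapse were listed in the deposited annotation for 10 of 10 genes, against 1.61%, 3.15% and 2.38% of all 17744 annotated genes.

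Peaks of the scaffold genes lay mostly in 3′ UTRs. Their median fold enrichment was below that of all peaks, and so was the median for genes of their partners. In WT mice, 21 of 32 peaks (65.6%) were annotated as 3′ UTR, against 47.2% of all WT peaks. In *Tyrobp*-/- mice it was 21 of 35 (60%), against 49.3% of all peaks. Each peak has a single annotated class, so a peak of several exonic blocks counted as 3′ UTR can also cover other exons. In 5′ UTRs lay 8 WT peaks (25%, against 18.9% of all) and 5 *Tyrobp*-/- peaks (14.3%, against 17.3% of all). The median fold enrichment was 4.12 in WT mice, with quartiles of 2.83 and 6.79, against a median of 5.54 over all WT peaks. In *Tyrobp*-/- mice it was 3.91, with quartiles of 2.68 and 8.32, against 5.72 over all peaks.

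The mean number of peaks per gene was above that of all genes with a peak. It was 3.2 against 2.13 in WT mice, and 3.89 over the 9 genes with a peak against 2.16 in *Tyrobp*-/- mice. *Dlg3* with 2 peaks in each genotype, *Homer2* with 1 WT peak and *Shank1* with 2 *Tyrobp*-/- peaks were below these means. The highest peak of each scaffold gene had a median fold enrichment of 9.24 in WT mice (8.01 over all genes). In *Tyrobp*-/- mice this median was 12.4 (8.17 over all genes). A maximum over more peaks tends to be larger, and these values were not adjusted for the number of peaks. The FDR of a peak, for IP against input, was below 0.05 in 32 of 32 WT peaks, where 89.7% of all WT peaks passed. In *Tyrobp*-/- mice it was below 0.05 in 32 of 35 peaks, where 89.0% of all peaks passed. The 3 peaks that did not pass were all in *Dlg2*.

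**Figure D1:**
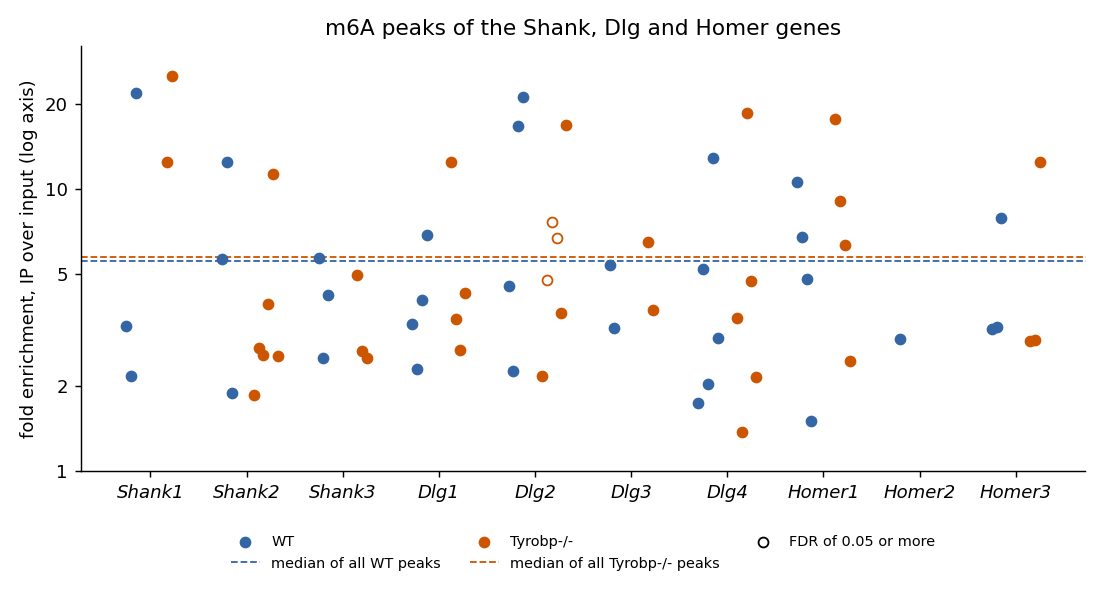
Fold enrichment of IP over input (log axis) of every peak of the 10 scaffold genes, each point 1 peak called on 3 pooled samples of WT or *Tyrobp*-/- mice, with dashed lines at the median of all peaks (5.54 in WT and 5.72 in *Tyrobp*-/- mice). *Shank1*, *Shank2*, *Dlg2*, *Dlg4* and *Homer1* have a peak above 10-fold in each genotype, *Shank3* and *Dlg3* have none, and *Homer2* has a single peak, in WT mice.

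*Shank1*, *Shank2* and *Shank3* encode the large scaffolds that lie deepest in the postsynaptic density, and *SHANK3* is known as a gene of Phelan-McDermid syndrome in humans. The 3 genes had 9 peaks in WT and 11 in *Tyrobp*-/- mice. Their median fold enrichment was 4.19 in WT and 2.72 in *Tyrobp*-/- mice. These medians are over unlike sets of peaks, because a *Shank2* peak of WT mice was divided in *Tyrobp*-/- mice. Over the 7 *Shank* pairs matched between genotypes, the median log2 ratio of *Tyrobp*-/- over WT was -0.13.

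The most enriched peak of all 10 genes was in *Shank1*, in each genotype. It lay near the end of the gene on the forward strand of chromosome 7 (chr7:44353296-44358176 in GRCm38), was annotated as 3′ UTR and held 2906 exonic bases in WT and 2936 in *Tyrobp*-/- mice. Its fold enrichment was 21.8 in WT and 25.0 in *Tyrobp*-/- mice, above 96.8% and 97.9% of all peaks of the same list. The other *Shank1* peaks did not recur between genotypes. WT mice had a peak of 3.26-fold in the 5′ UTR (chr7:44310253-44312680) and one of 2.18-fold in an exon (chr7:44352876-44353026). *Tyrobp*-/- mice had a peak of 12.4-fold over 60 bases of another exon (chr7:44351241-44351300), with an FDR of 0.00562.

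*Shank2* peaks lay at the 3′ end of the gene in each genotype, apart from a 5′ UTR peak in *Tyrobp*-/- mice. A long WT peak was divided in *Tyrobp*-/- mice. The WT peak covered 2460 exonic bases of the penultimate exon and beyond (chr7:144409591-144418006) with a fold enrichment of 5.63. *Tyrobp*-/- mice had 3 peaks in that stretch, of 2.72-fold over 871 bases, 2.57-fold over 570 bases and 3.91-fold over 451 exonic bases. The 3′ UTR peak next to it (chr7:144418336-144421555) was similar in value, at 12.4-fold in WT and 11.3-fold in *Tyrobp*-/- mice. A weaker 3′ UTR peak at the very end (chr7:144424254-144424494) had 1.89-fold in WT and 2.55-fold in *Tyrobp*-/- mice. A 5′ UTR peak of 1.86-fold (chr7:144284643-144284763) was called in *Tyrobp*-/- mice without a WT partner. In each genotype, 2 *Shank2* peaks overlapped the RefSeq gene *Gm34621*, to which neither list assigned a peak.

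*Shank3* had 3 peaks in each genotype, all annotated as 3′ UTR on chromosome 15. The first, at chr15:89547680-89548429 in WT mice, had 5.69-fold in WT and 4.95-fold in *Tyrobp*-/- mice. The second had 2.51-fold in WT and 2.67-fold in *Tyrobp*-/- mice, and ran over 570 exonic bases in WT against 360 in *Tyrobp*-/- mice. The last, at chr15:89557957-89558585 in WT mice, had 4.19-fold in WT and 2.51-fold in *Tyrobp*-/- mice, which is 1.67-fold lower and the only *Shank* pair past 1.5-fold.

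*Dlg1* to *Dlg4* encode SAP97, PSD-93, SAP102 and PSD-95, membrane-associated guanylate kinases with PDZ domains that bind NMDA receptors and AMPA receptor partners. They had 15 peaks in WT and 17 in *Tyrobp*-/- mice, with a median fold enrichment of 4.05 and 4.29. The 5′ UTR held 6 of the 15 WT peaks and 3 of the 17 *Tyrobp*-/- peaks. First exons held 1 WT peak and 5 *Tyrobp*-/- peaks, all of *Dlg2*.

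*Dlg1* had its largest difference between genotypes in the 5′ UTR, at the start of the gene on chromosome 16. The peak had 3.32-fold in WT mice over 61 exonic bases (chr16:31663443-31663923) and 12.4-fold in *Tyrobp*-/- mice over 151 exonic bases (chr16:31663443-31664013). For these peaks the FDR was 0.0407 in WT and 0.00501 in *Tyrobp*-/- mice. A 5′ UTR peak further along (chr16:31754636-31754996) had 2.30-fold in WT and 3.47-fold in *Tyrobp*-/- mice. In the 3′ UTR, a peak of 4.05-fold over 451 bases in WT mice (chr16:31874499-31874949) stood against *Tyrobp*-/- peaks of 2.69-fold over 61 bases and 4.29-fold over 151 bases. A WT peak of 6.84-fold over 61 bases (chr16:31875069-31875129) had no partner. These 3′ UTR peaks lay past the end of *Dlg1* in RefSeq, within the longer Ensembl transcript used by the authors.

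The start of *Dlg1* is shown because its peak had the largest rise among the scaffold genes and differed in length between genotypes. Its second exonic block ended at base 31663923 in WT and at base 31664013 in *Tyrobp*-/- mice. 4-letter words (GGAC or GAAC or AGAC or AAAC), which hold the adenosine and cytosine that the methyltransferase favours, were searched on the strand of the gene alone, because m6A is on the transcript. RefSeq promoter sequence of GRCm38.p6 reached over the first 76 bases of that block and held 1 such word, past the end of the WT peak, in capitals below on the forward strand (chr16:31663955-31663984).
*Dlg1*: cggcccggaggcgagcGGACgagcaggggc
Of all 32851 RefSeq promoter windows cut to the same 76 bases, 64.4% held such a word, so its presence is common and marks no site. The search left the base after the word free, and in this *Dlg1* word it is a G. The first block of the peak, of 46 bases, held 0 such words, against 47.2% of windows with one.

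Among the 9 genes with peaks in each genotype, *Dlg2* had the smallest shared part. Of its exonic bases inside peaks, 46.8% of those in WT and 45.2% of those in *Tyrobp*-/- mice were shared. The strongest peak, in the 3′ UTR at the end of the gene (chr7:92448857-92449127), was in each list, with 21.1-fold in WT and 16.8-fold in *Tyrobp*-/- mice. At the start of the gene, a first exon (chr7:90476672-90476882) had 4.52-fold in WT and 2.18-fold in *Tyrobp*-/- mice, and a 5′ UTR peak of 2.26-fold (chr7:90477062-90477392) was in WT mice alone.

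Inside *Dlg2*, a WT peak of 16.6-fold joined 91 exonic bases across an intron (chr7:91672937-91711492) and touched a *Tyrobp*-/- peak of 3.62-fold (chr7:91672877-91672937) at 1 base. Their ratio therefore compares neighbouring stretches and not the same one. *Tyrobp*-/- mice had 3 further *Dlg2* peaks of 4.76-fold, 7.62-fold and 6.67-fold, with an FDR of 0.0912, 0.173 and 0.175. The last 2 were annotated as exons of gene models with other identifiers inside the *Dlg2* span.

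*Dlg3*, on chromosome X, had corresponding 3′ UTR peaks in each genotype. The first had 5.35-fold in WT (chrX:100815274-100816852) and 6.47-fold in *Tyrobp*-/- mice, and the second 3.21-fold in WT (chrX:100818200-100818410) and 3.71-fold in *Tyrobp*-/- mice. Of the exonic bases inside WT peaks, 96.6% were also inside *Tyrobp*-/- peaks.

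*Dlg4* had 5 peaks in each genotype, and its strongest was in the 3′ UTR (chr11:70045184-70046203 in WT mice). This peak had 12.8-fold over 1020 bases in WT mice. In *Tyrobp*-/- mice the same stretch held a peak of 18.6-fold over 540 bases and another of 4.70-fold over 361 bases. The peaks on either side were lower in *Tyrobp*-/- mice. The one before (chr11:70044273-70044854) had 2.04-fold in WT against 1.38-fold. The one after (chr11:70047402-70047462) had 2.96-fold in WT against 2.16-fold and lies past the end of *Dlg4* in RefSeq. That end, base 70045535, lies inside the 12.8-fold WT peak and the 18.6-fold peak, and before the 4.70-fold peak. In the 5′ UTR, a WT peak of 5.21-fold (chr11:70029651-70029748) and a *Tyrobp*-/- peak of 3.49-fold shared 1 base, so their values stem from neighbouring stretches.

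A weak *Dlg4* peak of 1.75-fold in the 5′ UTR (chr11:70018473-70018772) was called in WT mice alone. It is shown because it is the only listed peak of *Dlg4* with RefSeq promoter sequence under it, for 182 of its 300 bases. That stretch held 2 of the 4-letter words named above, in capitals on the forward strand of GRCm38.p6, at chr11:70018541-70018570 and chr11:70018613-70018642.
*Dlg4* first word: tggccgtttggcaAGACccccgcatacccc
*Dlg4* second word: tgccccagccccaGAACtccggggctgcca
Of all promoter windows cut to 182 bases, 90.6% held at least 1 such word.

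*Homer1*, *Homer2* and *Homer3* encode adaptors whose EVH1 domain binds group I metabotropic glutamate receptors and Shank proteins. They had 8 peaks in WT and 7 in *Tyrobp*-/- mice, and their median fold enrichment was 4.01 in WT and 6.33 in *Tyrobp*-/- mice. The sets differ, because *Homer2* had a peak in WT mice alone.

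*Homer1* had 4 peaks in each genotype, each with a higher fold enrichment in *Tyrobp*-/- mice. The 5′ UTR peak at the start of the gene (chr13:93304457-93308116) had 10.6-fold in WT and 17.6-fold in *Tyrobp*-/- mice, and its span in WT mice reached across an intron to a further 83 bases that the *Tyrobp*-/- peak did not include. A 3′ UTR peak of a shorter transcript, inside the gene (chr13:93366302-93366721), had 6.77-fold in WT and 9.01-fold in *Tyrobp*-/- mice. Near the end of the gene, a peak of 3 exonic blocks (chr13:93391738-93402465), annotated as 3′ UTR, had 4.78-fold in WT and 6.33-fold in *Tyrobp*-/- mice. The last peak (chr13:93403213-93403333) had 1.51-fold in WT and 2.46-fold in *Tyrobp*-/- mice. The 50 bases of RefSeq promoter sequence under the second block of the WT peak held 0 of the 4-letter words named above, which 50.8% of windows of that length hold.

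The log2 ratios of the 4 *Homer1* peaks were 0.73, 0.41, 0.41 and 0.70, each above the upper quartile of all matched peaks, 0.39. Of the 477 genes with 4 matched peaks, 41 (8.60%) had all 4 higher in *Tyrobp*-/- mice and 27 (5.66%) had all 4 lower. Peaks of 1 gene share its transcript and libraries, so they do not count as replicates.

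*Homer2* had a single peak, of 2.93-fold in the 3′ UTR in WT mice (chr7:81611261-81611500, reverse strand), with an FDR of 0.000178. It lay within the span of the RefSeq gene *Gm44570*. The absence of a listed peak in *Tyrobp*-/- mice does not show that the RNA was unmethylated, because the depth behind single peaks is unknown.

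*Homer3* had 3 peaks in each genotype, all in the 3′ UTR on chromosome 8, of which 2 overlapped each other. The overlapping peaks had 3.19-fold and 3.24-fold in WT mice and 2.91-fold and 2.89-fold in *Tyrobp*-/- mice. The peak at the very end (chr8:70294062-70294361) had the same borders in each list, with 7.88-fold in WT and 12.4-fold in *Tyrobp*-/- mice, 1.57-fold higher. All 3 peaks lay within the RefSeq span of *Ddx49*, to which neither list assigned a peak. By the study's methods, libraries were made with dUTP in the second strand and a UDG treatment, so reads can carry strand. Whether strand was used in calling peaks is not given in the sources used here. It is therefore unknown whether reads of *Ddx49* entered these peaks.

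**Figure D2:**
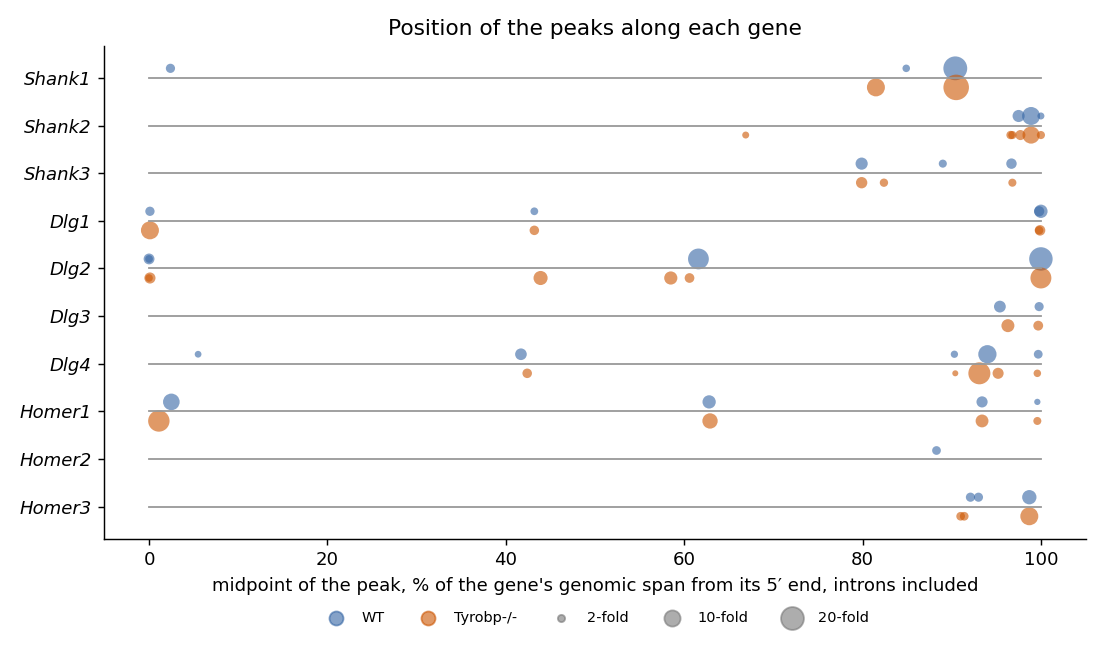
Midpoint of each peak along its gene, as % of the genomic span from the 5′ end with introns included, WT above and *Tyrobp*-/- below each line, with point area proportional to fold enrichment. Of the peaks, 21 of 32 in WT and 23 of 35 in *Tyrobp*-/- mice lie in the last 20% of the span, and 5′ peaks stand out in *Homer1*, *Dlg1* and *Dlg2*.

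For the comparison of genotypes, peaks of both lists under the same gene name were matched when each was the other's largest overlap. The scaffold genes gave 25 matched pairs in 9 genes, of 23142 pairs in 13663 genes. Their median log2 ratio of fold enrichment, *Tyrobp*-/- over WT, was 0.09, with quartiles of -0.45 and 0.43. Over all pairs it was 0.05, with quartiles of -0.29 and 0.39. The ratio was above 0 in 14 of the 25 pairs (56%), against 53.6% of all pairs.

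The fold enrichment was at least 1.5-fold higher in *Tyrobp*-/- mice in 5 of the 25 pairs, against 16.2% of all pairs. These were both 5′ UTR peaks of *Dlg1*, the first and last peaks of *Homer1*, and the last peak of *Homer3*. It was at least 1.5-fold lower in 3 of the 25 pairs, against 13.4% of all pairs, and these were the *Dlg2* first exon, the *Dlg2* peak inside the gene that shared 1 base, and the last *Shank3* peak. At 2-fold, 1 pair was higher (*Dlg1*, log2 ratio 1.90), against 7.13% of all pairs, and 2 were lower (*Dlg2*, -1.05 and -2.20), against 6.26%. Those 3 pairs each had an FDR above 1e-5 in at least 1 list. Without the *Dlg2* and *Dlg4* pairs that shared 1 base, 23 pairs remained, with 14 higher and 9 lower and a median log2 ratio of 0.20. Of these, 2 were at least 1.5-fold lower (13.3% of all 22952 such pairs) and 1 at least 2-fold lower (6.20%).

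**Figure D3:**
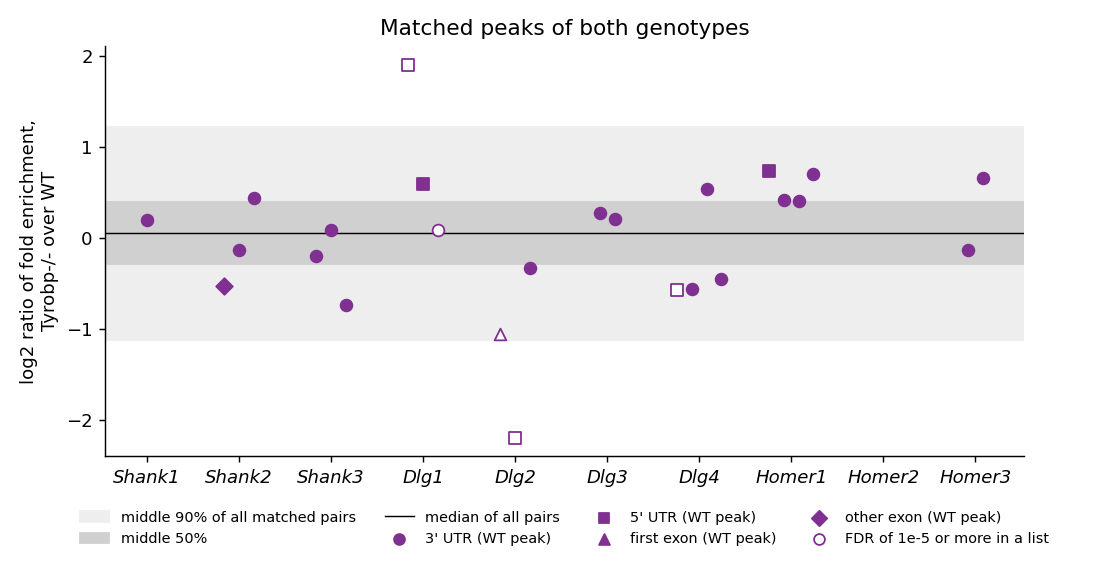
Log2 ratio of fold enrichment, *Tyrobp*-/- over WT, of the 25 matched peaks, each point 1 pair and its shape the annotation of the WT peak, with grey bands for the middle 50% (-0.29 to 0.39) and the middle 90% (-1.12 to 1.21) of all 23142 pairs. The 4 *Homer1* pairs lie above the darker band, and 1 *Dlg1* pair and 1 *Dlg2* pair lie outside the lighter band.

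By family, the median log2 ratio was -0.13 over 7 *Shank* pairs, -0.12 over 12 *Dlg* pairs and 0.53 over 6 *Homer* pairs. Of the *Dlg* pairs, 6 were higher and 6 lower in *Tyrobp*-/- mice. The lower ones include the *Dlg2* and *Dlg4* pairs that shared 1 base. Without those, higher pairs outnumber lower ones and the *Dlg* median turns positive, so its sign rests on them. In the *Dlg* family the direction varied by gene. *Dlg1* had 3 of 3 pairs higher in *Tyrobp*-/- mice and *Dlg2* had 3 of 3 lower, patterns shown by 16.2% and 8.97% of the 1450 genes with 3 pairs. Without the pair that shared 1 base, *Dlg2* had 2 of 2 pairs lower, as did 21.6% of the 3699 genes with 2 such pairs. *Dlg3* had 2 of 2 pairs higher. *Dlg4* had 1 pair higher and 3 lower, or 2 lower without the pair that shared 1 base. Pairs can also differ in length. The higher *Dlg4* pair sets 1020 bases in WT against 540 in *Tyrobp*-/- mice. A lower *Shank2* pair sets 2460 exonic bases in WT against 451 in *Tyrobp*-/- mice.

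Peaks without any overlap in the other genotype were few. In WT mice 26 of 32 peaks (81.3%) overlapped a *Tyrobp*-/- peak, against 80.0% of all WT peaks. In *Tyrobp*-/- mice 30 of 35 (85.7%) overlapped a WT peak, against 77.9%. The 6 WT peaks without overlap were 2 of *Shank1* and 1 each of *Dlg1*, *Dlg2*, *Dlg4* and *Homer2*, with fold enrichments between 1.75 and 6.84. The 5 *Tyrobp*-/- peaks without overlap were 3 of *Dlg2* and 1 each of *Shank1* and *Shank2*, between 1.86-fold and 12.4-fold.

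Peaks of the scaffold genes covered fewer exonic bases in *Tyrobp*-/- mice. They covered 16825 bases in WT and 14085 in *Tyrobp*-/- mice, and the 12642 shared bases were 75.1% of the WT and 89.8% of the *Tyrobp*-/- bases. The median exonic length of a peak was 346 bases in WT mice (326 over all peaks) and 271 in *Tyrobp*-/- mice (301 over all peaks). Peaks of several exonic blocks were 13 of 32 in WT mice (40.6%, against 28.9% of all) and 7 of 35 in *Tyrobp*-/- mice (20%, against 26.5% of all).

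**Figure D4:**
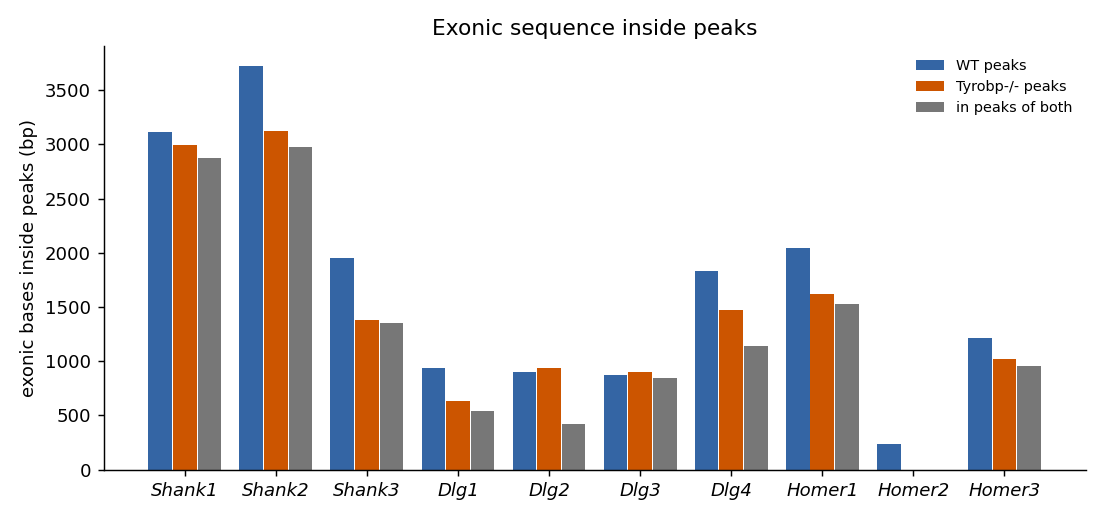
Exonic bases inside peaks for each scaffold gene in WT mice, in *Tyrobp*-/- mice and in both, with bars from 0. *Shank2* (3722 and 3125 bases) and *Shank1* (3118 and 2996 bases) have the most in each genotype, and for *Dlg2* (904 and 935 bases) the shared bar, 423 bases, is shorter than for either genotype.

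The authors also deposited a table of peaks that compares the genotypes, of which positions alone were used here, and the rule by which peaks entered it is not given in the sources used here. It held 12 rows of the scaffold genes among 5640, from 8 of the 10 genes, against 26.3% of all genes with a peak. These shares were not adjusted for peaks per gene, which were more for the scaffold genes (a mean of 3.2 against 2.13 in WT mice). A gene with more peaks has more chances of a row. *Shank2* and *Homer3* had 0 rows. The rows were 8 in 3′ UTRs, 2 in 5′ UTRs and 2 in exons, and included the *Dlg1* start, the long *Shank1* 3′ UTR peak, the *Homer2* peak and the last *Homer1* peak.

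Genes of partner proteins also had median fold enrichments below those of all peaks. A list of 20 partners in the postsynaptic density had 53 peaks in WT and 57 in *Tyrobp*-/- mice, with median fold enrichments of 4.44 (5.54 over all peaks) and 4.80 (5.72 over all peaks). Their 43 matched pairs had a median log2 ratio of -0.03, with 4 at least 1.5-fold higher and 5 at least 1.5-fold lower in *Tyrobp*-/- mice, together 20.9% against 29.6% of all pairs. For the scaffold genes this share was 32%. A list of 10 other guanylate kinase scaffolds had 20 matched pairs with a median log2 ratio of 0.01. Of these, 0 were at least 1.5-fold higher and 2 lower (10%). The median fold enrichment of this list was 5.035 in WT mice, below all peaks, and 5.87 in *Tyrobp*-/- mice, above all peaks. In WT and *Tyrobp*-/- mice, 62.5% and 57.7% of its peaks were annotated as 3′ UTR. For the partners it was 54.7% and 49.1%, against 47.2% and 49.3% of all peaks.

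Among the partners, *Dlgap1* to *Dlgap4* encode the proteins between PSD-95 and Shank. The highest *Dlgap2* peak, in the 3′ UTR, had 19.6-fold in WT and 11.6-fold in *Tyrobp*-/- mice, a log2 ratio of -0.76, and its exon peak had a log2 ratio of -0.07. A *Dlgap4* exon peak had 3.09-fold in WT and 7.62-fold in *Tyrobp*-/- mice, a log2 ratio of 1.30. The other *Dlgap4* pairs were lower in *Tyrobp*-/- mice, at 3.60-fold against 2.67-fold in an exon and 8.53-fold against 6.96-fold in the 3′ UTR. The matched peaks of *Dlgap1* had log2 ratios of 0.15 and 0.39, and those of *Dlgap3* had 0.30 and -0.08.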

How the data were processed

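The study's methods name fastp for trimming, HISAT2 for mapping (mouse genome of Ensembl v96, which is GRCm38), exomePeak for peak calling and ChIPseeker for annotation. The values show 1 list per genotype, over its 3 samples. The authors deposited, per library, the count of valid reads and the percent of bases that were G or C or reached Q30. For each peak, the deposited lists give a p-value and FDR of IP against input, and a fold enrichment, which is the ratio between these libraries. Peaks were listed up to an unadjusted p of 0.05. A further deposited table holds the authors' log2 fold change, p-value and FDR between genotypes. Those columns were not used, and its rows served for positions only.

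Peaks were assigned by the gene name in the lists. Overlaps were of at least 1 bp between spans, introns included (bedtools 2.31.1). Log2 ratios were taken without a pseudocount. Exonic bases were counted from peak blocks as unions. All 10 genes matched RefSeq (GRCm38.p6) by symbol. Matching was tested on simulated data. The genes reported are the 10 scaffold genes with each of their peaks, and *Dlgap1* to *Dlgap4* of the partners. Other partners were counted without their values, and 1 gene that the naming rule covers is not reported here. The genes and lists were chosen with earlier results of these data known. Stricter thresholds of peak calling, fold enrichment and overlap, centring, and other weights of peaks were tried as alternatives. The depth behind a single peak is unknown. Python 3.11.15, pandas 2.3.3, numpy 2.4.6, scipy 1.17.1 and matplotlib 3.10.9 were used.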

Additional observations from a re-analysis of the deposited data

How the results depend on the processing

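Under the alternatives, 17 values stayed within the tolerance set (1.5 times for a count, the 95% exact binomial interval for a share, 1 SD over pairs for a median) and 9 moved. Within it, an FDR below 1e-5 left 26 of 32 WT and 24 of 35 *Tyrobp*-/- peaks, and a reciprocal overlap of 50% left 6 of the 8 pairs past 1.5-fold. With a fold enrichment of at least 4, the scaffold genes kept 17 peaks in WT and 17 in *Tyrobp*-/- mice. With a reciprocal overlap of 50%, 59.4% of WT and 54.3% of *Tyrobp*-/- peaks overlapped. With both lists at an FDR below 1e-5, 100% of *Tyrobp*-/- peaks overlapped a WT peak. The 8 matched pairs past 1.5-fold became 3 at 2-fold and, in alternatives chosen after seeing the data, 5 with both lists at an FDR below 1e-5 and 7 without pairs that share 1 base. With 1 peak per gene, the one of highest fold enrichment, the 3′ UTR share was 90% in WT and 77.8% in *Tyrobp*-/- mice. Counts and shares over all peaks under these alternatives are not given. These changes therefore cannot be set against those of peaks in general. The median log2 ratio of matched pairs lay between 0.04 and 0.20 under the alternatives run. Log2 ratios of single pairs ran from -2.20 to 1.90. An SD over pairs is therefore a wide tolerance for a median, and staying within it says little. The causes were not tested. No paired analysis was possible because the authors called peaks on the 3 samples of a genotype together, and for the same reason no replicate could be left out. A peak called in 1 genotype and not in the other may lie near the calling threshold in both, and the values give no limit on what could be missed.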
